A study of Homo sapiens with 42 samples.

Results

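The transcription factor genes TFE3, TFEB and MITF were followed together with 7 genes that act around them at the lysosome and the autophagosome, FLCN, FNIP1, RRAGC, RRAGD, GABARAPL1, MAP1LC3B and WIPI1. These 10 genes, of 20515 named genes in the table, were listed by symbol, and all 10 had a row and a mean of 10 or more. TFE3 was chosen by its level, which was higher with BSO in all 5 genotypes, so its change with BSO is given below as values without a test. The other 9 genes were listed with earlier results of these data known, so how many of them passed a test is not independent support for a pattern.

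RNA was sequenced in 42 libraries of HAP1, a near-haploid human line derived from a chronic myeloid leukaemia. The knockout lines were labelled as deficient for the DNA glycosylase NEIL1 (neil1, 3 libraries with BSO and 3 in media), NEIL2 (neil2, 3 and 3), NEIL3 (neil3, 4 and 4) or all of them (neil123, 4 and 4), and were compared with wild type cells (wt, 7 and 7). BSO, buthionine sulfoximine, blocks glutamate-cysteine ligase and so the synthesis of glutathione. It was given at 200 µM for 48 h, begun after 4 h, and the control cultures received media alone. Each BSO library has a media library of the same replicate name, which makes 21 pairs. The names fall into 2 label sets: 24 libraries end in A or B (lettered: all of neil3 and neil123, 4 wt pairs) and 18 do not (unlettered: all of neil1 and neil2, 3 wt pairs). The labels give no date or batch for the sets. Most titles call a library a biological replicate, those of the 3 unlettered wt pairs do not, and none says what was kept separate, so p-values measure the spread between these libraries, part of which may be technical. How many clones stand behind a knockout label is likewise not stated.

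TFE3, TFEB and MITF belong to the MiT/TFE family of leucine zipper factors, which switch on lysosomal and autophagy genes. When nutrients are plentiful, the kinase complex mTORC1 at the lysosomal surface phosphorylates them and holds them in the cytosol; the Rag GTPases (RRAGC and RRAGD encode the RagC and RagD subunits) bring both the kinase and the factors there, and folliculin (FLCN) with its partner FNIP1 acts on RagC and RagD. Under starvation or lysosomal stress the factors enter the nucleus and bind the CLEAR element, whose core is CACGTG, and FLCN, RRAGD and several autophagosome genes are known targets. This control acts on the proteins, and the RNA levels below do not report it.

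Promoter sequence is shown for the 2 members that hold the CACGTG core and, for comparison, for TFE3. RefSeq (GRCh38.p14) gave promoters for 9 of the 10 members (not RRAGD), and the 250 bases before each start site were searched on both strands. FNIP1 held CACGTG at -175 to -170 and at -94 to -89, counted from the base before the start as -1, and RRAGC held it at -112 to -107. The stretches run 5′ to 3′ on the gene's own strand and show CACGTG in capitals. They stop before the gene's own annotated start in RefSeq and GENCODE, and transcripts of other genes were not checked. All 3 genes lie on the minus strand, and the stretches are chr5:131797064-131797267 (FNIP1), chr1:38859824-38860022 (RRAGC) and chrX:49043487-49043607 (TFE3).
FNIP1: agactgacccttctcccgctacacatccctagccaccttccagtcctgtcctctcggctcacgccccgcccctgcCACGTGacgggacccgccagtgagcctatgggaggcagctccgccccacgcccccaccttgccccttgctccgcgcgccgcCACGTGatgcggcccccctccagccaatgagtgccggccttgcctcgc
RRAGC: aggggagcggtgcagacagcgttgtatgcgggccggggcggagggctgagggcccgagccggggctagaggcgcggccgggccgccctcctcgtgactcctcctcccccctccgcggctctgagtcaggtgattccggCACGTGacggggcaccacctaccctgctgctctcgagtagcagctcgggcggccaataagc
TFE3: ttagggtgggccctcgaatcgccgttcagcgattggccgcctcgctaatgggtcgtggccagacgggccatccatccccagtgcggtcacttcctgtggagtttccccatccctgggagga
CACGTG stood in 6.34% of all 35116 promoter windows of that length, and in at least 1 window of 7.73% of 27305 genes. The antioxidant response element core TGACNNNGC stood in RRAGC at -108 to -100, where it overlaps the CACGTG, and in MAP1LC3B at -46 to -38, against 10.9% of all windows. None of the members held the CLEAR palindrome (0.308% of windows), TCACGTGA (0.854%) or the amino acid response element TGATGNAAN (3.13%). A match is a description of these letters, and binding was not measured.

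Reads in named genes numbered 26.8 M to 28.7 M in lettered and 29.9 M to 30.7 M in unlettered libraries. Levels are read counts divided by a size factor per library, so 1 read is worth 0.941 to 1.04. In media, NEIL2 stood at 300 to 328 in neil2 against 487 to 613 in unlettered wt, and at 215 to 242 in neil123 against 363 to 425 in lettered wt. NEIL3 stood at 381 to 472 in neil123 against 590 to 671 in lettered wt, while NEIL3 in neil3 and NEIL1 in neil1 and neil123 overlapped wt. For those labels the RNA level gives no check. Blood cell markers, which a leukaemia line might keep, were mostly near 0: PTPRC and ITGAM had a median of 0 and CD33 of 2.01. CD34 ran between 1.02 and 716. Among melanocyte markers, the lineage MITF is best known for, 5 of 6 were in the table, with medians of 0 for TYRP1, 1.01 for SOX10, 1.93 for DCT, 5.06 for MLANA and 23.2 for PMEL. Their summed level was 21.6 to 51.3 with BSO and 22.3 to 48.8 in media, and PMEL was the one of them with a median above 10.

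TFE3 was by far the most abundant of the 3 factors. As reads per kilobase of annotated exon and per M reads, its level in wt media was 32.2 ± 4.78 (SD, n = 7), against 1.89 ± 0.144 for TFEB and 1.22 ± 0.229 for MITF. On the same scale MAP1LC3B stood at 24.6 ± 1.98, RRAGD at 14 ± 2.26, GABARAPL1 at 7.75 ± 0.478 and RRAGC at 3.89 ± 0.51. FNIP1 stood at 3.16 ± 0.463, FLCN at 2.29 ± 0.635 and WIPI1 at 1.3 ± 0.105. Neighbours in this order whose library ranges overlap were TFE3 with MAP1LC3B, RRAGC with FNIP1, FNIP1 with FLCN, FLCN with TFEB, and WIPI1 with MITF. Exon lengths are from GENCODE v29, and the transcripts the reads came from are not known. Counts of WIPI1 are uncertain because 20.6% of its 50-base words also occur in transcripts of ARSG, which overlaps it on the other strand, and the strand setting of the counting is not given in the sources used here. RRAGC shares 22.2% with the overlapping entry AL139260.2, FLCN 10.9% with AC055811.2, GABARAPL1 5.01% with AC115676.1 and FNIP1 2.9% with AC008695.1. MAP1LC3B shares 4.82% with its near copy MAP1LC3B2, and its exons overlap FBXO31 on the other strand.

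With BSO, 7 of the 9 tested members rose on average over the 5 genotypes, and TFE3 was higher in all 21 pairs. FLCN rose most, by 0.43 ± 0.04 on the log2 scale (SE; 1.35-fold, adjusted p = 5.53e-10), and FNIP1, RRAGC, RRAGD, GABARAPL1, MAP1LC3B and WIPI1 rose by 0.16 to 0.31. TFEB and MITF did not pass in any genotype or on average. Of all 14331 tested genes, 1876 rose and 1791 fell in this average, 25.6% in either direction, so a call alone does not mark a member out. A culture is measured in bulk, so fewer cells of a type and less RNA per cell cannot be told apart.

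Within single genotypes, 11 of 45 member tests passed, each upward, at an adjusted p under 0.05 with limma. Pairs numbered 7 in wt, 4 in neil3 and neil123 and 3 in neil1 and neil2. Fewer pairs make a call harder, so counts of calls do not compare the size of the response between genotypes. In wt 5 of 9 passed (FLCN, RRAGC, RRAGD, GABARAPL1 and MAP1LC3B), where 7.24% of all genes rose. In neil3 4 passed (FLCN, FNIP1, RRAGD and MAP1LC3B), where 3.36% of all genes rose. In neil123 FLCN alone passed, where 1.33% of all genes rose, and in neil1 again FLCN alone, where 0.823% rose. In neil2 none passed with limma, edgeR or DESeq2, 2 of 9 had an unadjusted p under 0.05 in each of the 3, and 0.14% of all genes rose. With the replicate name as a block, 28 of 45 passed: 7 in wt (16% of all genes rose), 4 in neil1 (4.11%), 4 in neil2 (3.69%), 7 in neil3 (9.84%) and 6 in neil123 (5.55%). The 7 of wt and of neil3 were all tested members but TFEB and MITF, and the 6 of neil123 were these without WIPI1. The 4 of neil2 were FLCN, RRAGC, GABARAPL1 and MAP1LC3B, and the 4 of neil1 were FLCN, GABARAPL1, MAP1LC3B and WIPI1. Without the label set term 5 of 45 passed (FLCN, RRAGC, GABARAPL1 and MAP1LC3B in wt, FNIP1 in neil3). With 1 mean per line, taken separately in each label set, 6 passed (the 5 of wt, and FLCN in neil3). Some wt lines occur in both label sets and so count more than once. With DESeq2 15 of 45 passed: the 11 of limma, FNIP1 in wt and neil123, RRAGD in neil123 and MAP1LC3B in neil1.

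**Figure D1:**
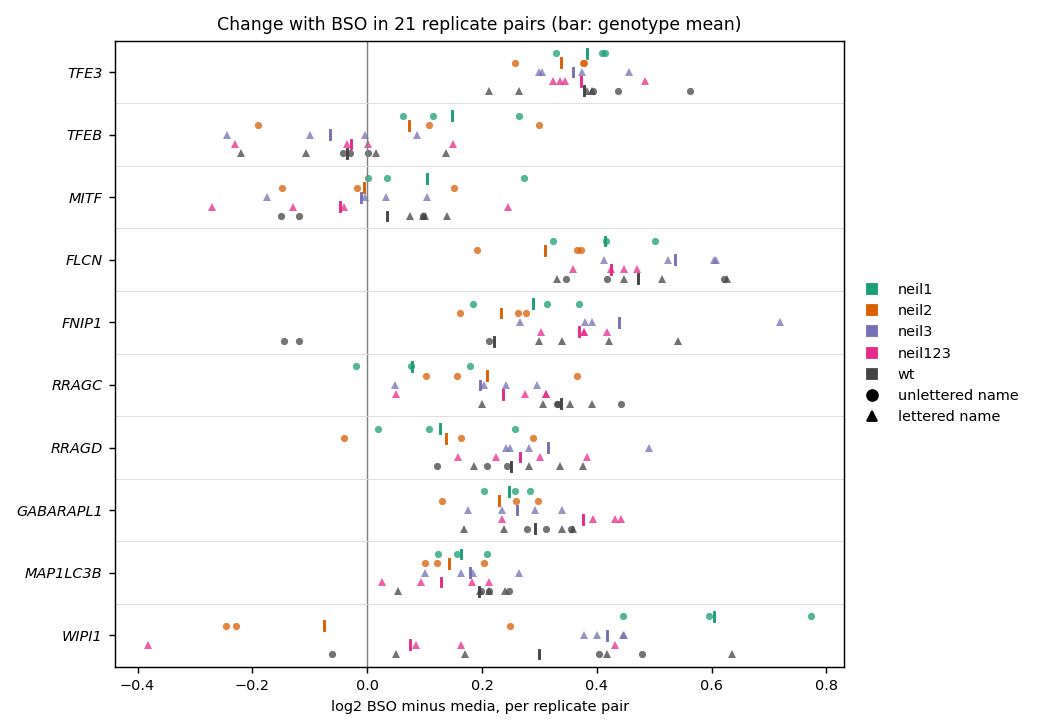
Change with BSO of the 10 members on the log2 scale, 1 point per replicate pair (n = 3 in neil1 and neil2, 4 in neil3 and neil123, 7 in wt), with the genotype mean as a bar; circles are unlettered and triangles lettered names. All 21 points of TFE3, FLCN, GABARAPL1 and MAP1LC3B lie above 0, those of TFEB and MITF lie on both sides of it, and WIPI1 spreads from -0.38 to 0.77.

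TFE3 had 4253, 4433 and 3867 normalised counts with BSO in neil1, against 3192, 3339 and 3082 in media. In neil2 it had 3941, 3587 and 4093 with BSO, against 3033, 3001 and 3154 in media. In neil3 it had 5262, 5124, 5020 and 5293 with BSO, against 3836, 4149, 4076 and 4085 in media. BSO and media libraries did not overlap in these or in the other genotypes. In neil123 it had 4865, 4736, 5105 and 4653 with BSO, against 3855, 3729, 3651 and 3718 in media. In wt its lowest, median and highest values were 4563, 5102 and 5494 with BSO, against 3159, 4006 and 4523 in media. The genotype means of the paired change lay close together, from 0.34 in neil2 to 0.38 in neil1 on the log2 scale, whereas single pairs ran from 0.21 in wt 1.1B to 0.56 in wt 1.3. The change in wt was 0.46 ± 0.09 in the unlettered pairs and 0.31 ± 0.09 in the lettered ones (SD, n = 3 and 4), and its wt level in media was 4242 ± 214 in the lettered and 3412 ± 276 in the unlettered libraries.

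TFEB, the family member best known as the lysosomal regulator, had 278, 259 and 281 with BSO in neil1, against 266, 239 and 233 in media. In neil2 it had 233, 244 and 258 with BSO, against 189, 278 and 240 in media. Its values overlapped between BSO and media in each of the 5 genotypes, and it was higher in 11 pairs and lower in 10. The mean change over the genotypes was 0.02 ± 0.04 (SE, adjusted p = 0.814, limma), and single pairs ran from -0.245 to 0.299. MITF, the melanocyte factor of the family, was higher in 12 pairs and lower in 9, with a mean change of 0.015 ± 0.06 (adjusted p = 0.887). Its level in wt media followed the label set, with 208, 208, 217 and 210 in the lettered set against 313, 322 and 267 in the unlettered one. In neil1 replicate rep12 had 206 with BSO and 206 in media. Replicates rep13.1 and rep13.2 had 338 and 317 with BSO, against 330 and 262 in media.

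**Figure D2:**
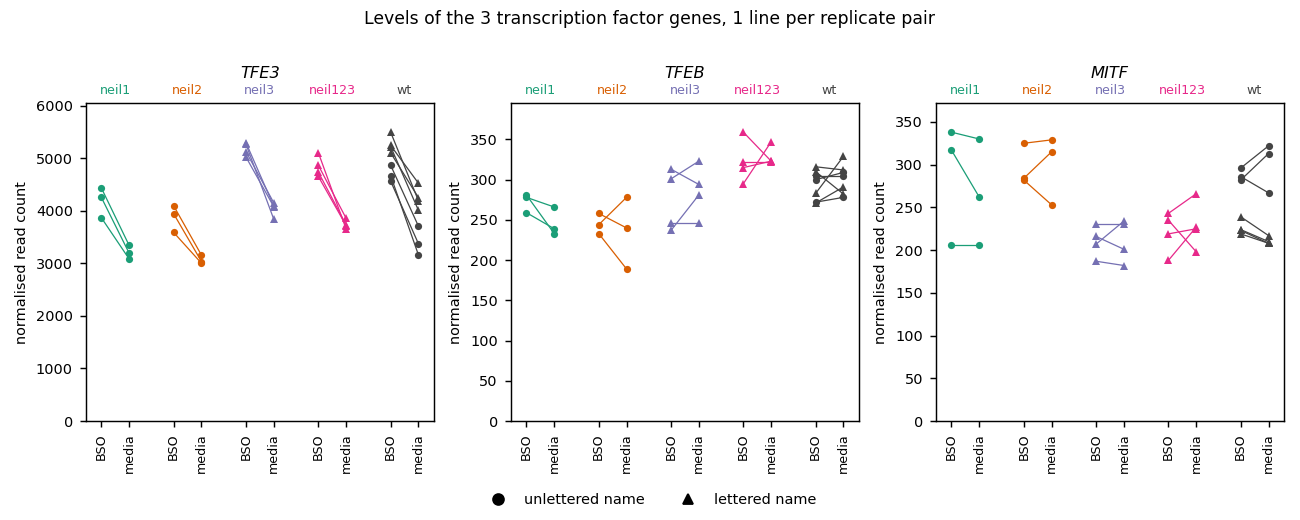
Normalised read counts of TFE3, TFEB and MITF, with each BSO library joined to its media library of the same name; circles are unlettered and triangles lettered names. Every TFE3 line falls toward media, while TFEB and MITF lines run both ways, and MITF circles of wt lie above its triangles.

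FLCN encodes folliculin, which acts on RagC and RagD at the lysosome. It was higher with BSO in 21 of 21 pairs. In neil1 it had 801, 700 and 640 with BSO, against 600, 494 and 512 in media, and in neil2 703, 651 and 659 with BSO, against 545, 569 and 509 in media. Neither pair of groups overlapped. In neil3 it had 1054, 1059, 1101 and 1114 with BSO, against 732, 795, 722 and 733 in media, the largest mean change of the 5 genotypes (0.54 ± 0.09 SE, adjusted p = 0.000158). In neil123 replicates 1A and 1B had 1160 and 1173 with BSO, against 864 and 860 in media, and replicates 2A and 2B had 963 and 885 with BSO, against 695 and 691 in media. The levels of neil123 thus differed by the leading number of the name, and the change with BSO was alike, from 0.36 to 0.47 in the 4 pairs. In wt the level depended on the label set: lettered libraries had 899 to 1209 with BSO and 715 to 846 in media, unlettered ones 603 to 688 with BSO and 447 to 473 in media. The change in wt was 0.48 in the lettered and 0.46 in the unlettered pairs. The call in neil1 (adjusted p = 0.0369) was lost without any one of its 3 replicates, at 0.37 to 0.46 on the log2 scale, and that in neil123 without replicate 2A, at 0.41. In neil2 the change of 0.31 passed with the replicate block (adjusted p = 0.00207) and not without it (adjusted p = 0.315).

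FNIP1, the folliculin partner whose promoter holds CACGTG at 2 places, rose clearly in neil3, where it had 921, 771, 1009 and 768 with BSO, against 707, 587, 613 and 638 in media. The change there was 0.44 ± 0.10 (SE, adjusted p = 0.00659), and without replicate 2A, whose change of 0.72 was the highest, it was 0.35 and did not pass. In neil123 it had 938, 861, 868 and 756 with BSO, against 722, 663, 650 and 612 in media, a narrow range of 0.30 to 0.42 per pair. This change passed with the replicate block (adjusted p = 0.00308). Without the block it did not pass with limma (adjusted p = 0.0613) and passed with DESeq2 (adjusted p = 0.0309). In wt the 2 label sets differed. Lettered wt had 951, 714, 927 and 789 with BSO, against 653, 580, 733 and 589 in media, and each pair was higher, by 0.30 to 0.54. Unlettered wt had 821, 741 and 822 with BSO, against 908, 805 and 710 in media, with changes of -0.15, -0.12 and 0.21. Fitted within its set, the wt change was 0.40 in the lettered pairs (adjusted p = 0.0175) and -0.02 in the unlettered ones (adjusted p = 0.948), and the difference between the sets was not tested. With the replicate block the change over all 7 wt pairs, 0.22, passed (adjusted p = 0.00616). Without the block this change did not pass with limma (adjusted p = 0.0547) and passed with DESeq2 (adjusted p = 0.0439). All 3 pairs of neil1 and of neil2, which carry unlettered names, were higher, by 0.18 to 0.37 and by 0.16 to 0.28.

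RRAGC, which encodes the RagC GTPase subunit, rose in wt by 0.34 ± 0.08 (SE, adjusted p = 0.00248), a call lost within the lettered set (0.31, adjusted p = 0.0861). Its wt values ran from 541 over a median of 729 to 930 with BSO, against 444, 573 and 684 in media; the groups overlapped, the lettered libraries being the lower ones, and all 7 pairs were higher. In neil1 it had 903, 826 and 734 with BSO, against 797, 783 and 744 in media, and the groups overlapped, with a change of 0.08 ± 0.12 that did not pass (adjusted p = 0.934). Its change passed with the replicate block in neil2 (0.21, adjusted p = 0.0468), neil3 (0.20, adjusted p = 0.0101) and neil123 (0.24, adjusted p = 0.00504), and in none of them without it. RRAGD, the RagD subunit and a known MiT/TFE target, rose in wt (0.25 ± 0.06, adjusted p = 0.00193) and in neil3 (0.32 ± 0.07, adjusted p = 0.0057). The wt call was lost within the unlettered set (0.19, adjusted p = 0.323) and without the label set term (0.25, adjusted p = 0.0822). In neil3 it had 2334, 2185, 2117 and 2080 with BSO, against 1662, 1798, 1790 and 1750 in media, with no overlap. Without neil3 replicate 1A, which changed by 0.49, the change was 0.26 and did not pass. In neil123 it had 2538, 2559, 2589 and 2509 with BSO, against 2060, 1964, 2216 and 2248 in media, again with no overlap. The change of 0.27 passed with the replicate block (adjusted p = 0.000813) and not in the main limma fit (adjusted p = 0.0528). Without the block it also passed with DESeq2 (adjusted p = 0.0284) and with limma within the lettered libraries (adjusted p = 0.00425). In neil2 replicate rep11.2 went the other way, with 1918 with BSO against 1974 in media.

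GABARAPL1 and MAP1LC3B encode ATG8 proteins, which are joined to lipid on the growing autophagosome membrane. GABARAPL1 was higher with BSO in 21 of 21 pairs, by 0.13 to 0.44. In neil123 it had 1246, 1181, 1005 and 988 with BSO, against 923, 869, 765 and 840 in media, and the groups did not overlap. Its change of 0.375 there passed with the replicate block (adjusted p = 6.78e-07) and not without it (adjusted p = 0.128). In neil3 it differed by the leading number of the name: replicates 1A and 1B had 990 and 868 with BSO against 783 and 737 in media, and replicates 2A and 2B had 1422 and 1149 with BSO against 1161 and 1017 in media. The call in wt (0.29 ± 0.09, adjusted p = 0.0259) was lost without replicate 1.1, 1.1A, 1.1B, 1.3 or p1, at 0.282 to 0.295, and within either label set; it passed with the replicate block (adjusted p = 1.13e-07). The block also brought GABARAPL1 past the threshold in neil3 (0.26, adjusted p = 8.03e-05; 0.226 without it), neil1 (0.25, adjusted p = 0.00184; 0.592) and neil2 (0.23, adjusted p = 0.00568; 0.738). MAP1LC3B, the most abundant autophagosome gene of the list, changed least of the members that rose, by 0.16 ± 0.02 on average (adjusted p = 1.85e-08), and was higher in 21 of 21 pairs, by 0.026 to 0.265. In wt its lettered libraries had 3866, 3823, 3914 and 3864 with BSO, against 3374, 3686, 3376 and 3273 in media. The unlettered ones had 4808, 4753 and 4653 with BSO, against 4150, 4006 and 4053 in media. Within each set BSO and media did not overlap, and the wt change passed (0.19 ± 0.03, adjusted p = 2.27e-05). The call in neil3 (0.18 ± 0.04, adjusted p = 0.00421) was lost without replicate 2A, at 0.15. With the block MAP1LC3B also passed in neil1 (0.16, adjusted p = 0.0136, against 0.076 without it), neil2 (0.14, adjusted p = 0.0418, against 0.281) and neil123 (0.13, adjusted p = 0.0232, against 0.113). In neil1 it also passed with DESeq2 without the block (adjusted p = 0.0209).

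WIPI1, which binds phosphatidylinositol 3-phosphate where autophagosomes form, was the least abundant of the autophagosome genes and the most variable. In neil1 it had 189, 168 and 163 with BSO, against 110, 111 and 120 in media, a change of 0.60 that passed with the replicate block (adjusted p = 0.00433) and not without it (adjusted p = 0.146). In neil2 replicates rep11.1 and rep11.2 were lower with BSO (98.6 and 127, against 117 and 149 in media), and replicate 12 was higher (153 against 129). In neil3 all 4 pairs changed by nearly the same amount, 0.38 to 0.45, although replicates 1A and 1B had 108 and 108 with BSO against 81.5 and 78.9 in media while 2A and 2B had 171 and 169 with BSO against 131 and 123 in media. In neil123 replicate 2B alone was lower, with 136 with BSO against 177 in media. The average over genotypes passed (0.26 ± 0.08, adjusted p = 0.00982). With the block the changes in wt (0.30, adjusted p = 0.0101; 0.118 without it) and neil3 (0.42, adjusted p = 0.0105; 0.151) passed, and 17 of 21 pairs were higher.

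**Figure D3:**
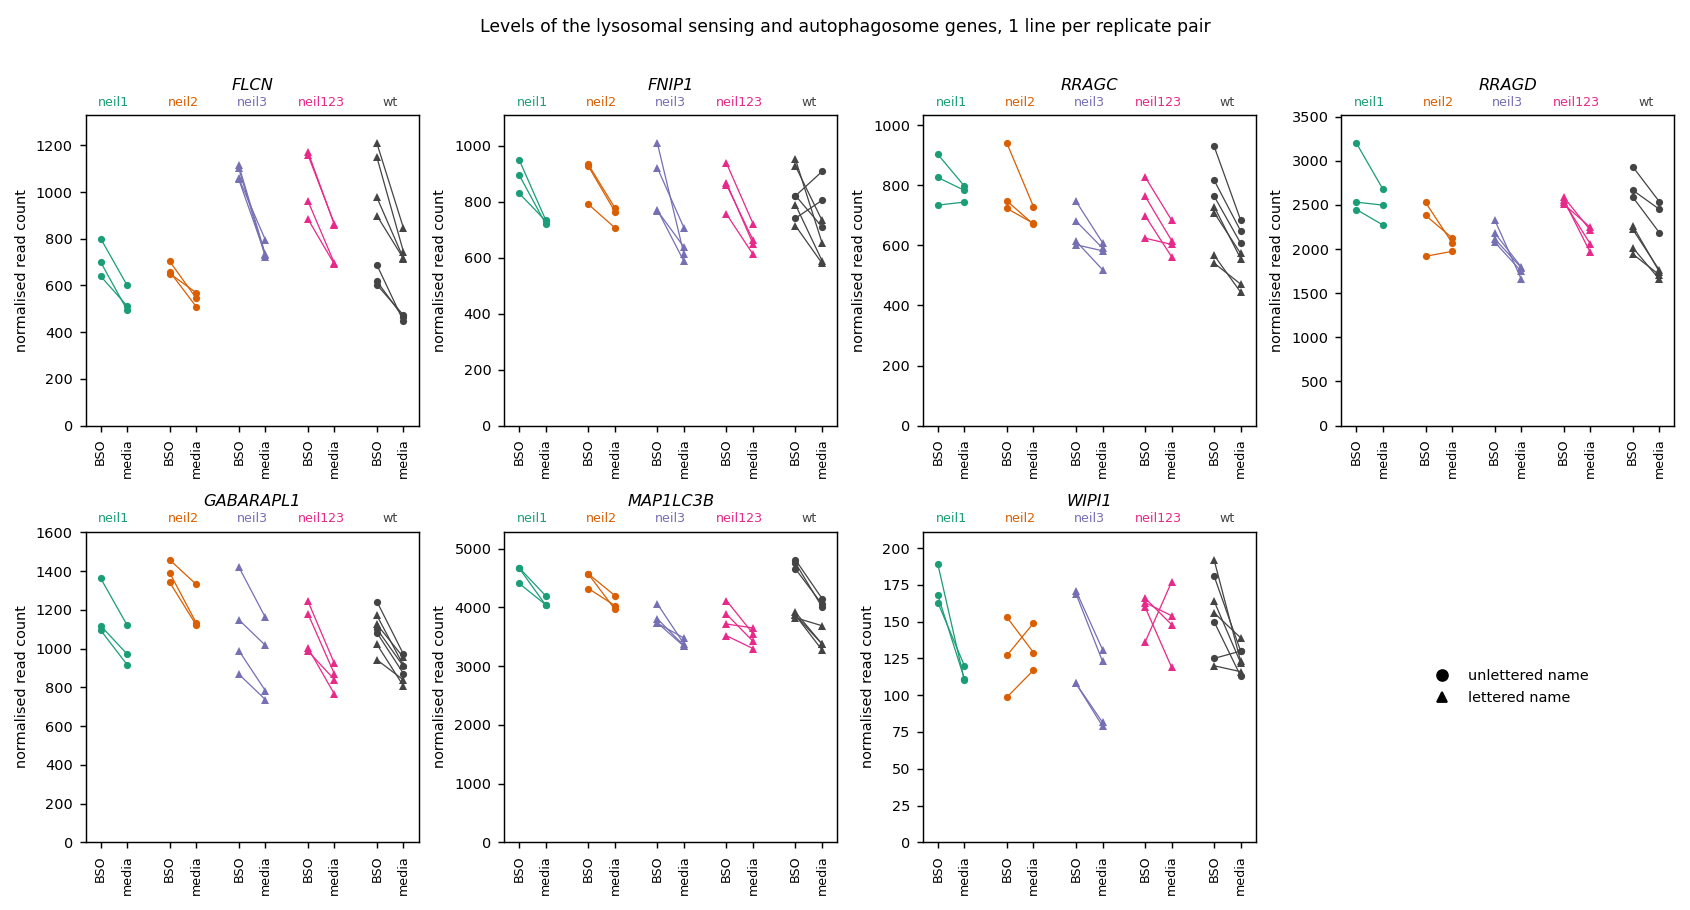
Normalised read counts of the 7 lysosomal sensing and autophagosome genes, with each BSO library joined to its media library of the same name; circles are unlettered and triangles lettered names. FLCN, GABARAPL1 and MAP1LC3B fall toward media in each pair, 2 of the 3 unlettered wt lines of FNIP1 rise toward media, and so do 2 of the 3 WIPI1 lines of neil2.

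Whether a knockout changed the response to BSO was asked as the BSO change in the knockout minus that in wt. None of the 36 member tests passed with limma, edgeR or DESeq2, nor with the replicate block; 0 of the 36 had an unadjusted p under 0.05 with limma, edgeR or DESeq2, and 4 had one with the block. With limma, no gene of the 14331 passed in neil1 (0%), neil2 (0%), neil3 (0%) or neil123 (0%); with the block 11 were higher and 20 lower in neil2, none of them a member, and 0 passed in the other knockouts. In the main limma fit the smallest unadjusted p among the members was 0.0727 (0.00193 with the block, adjusted p = 0.999), for RRAGC in neil1. Its change was 0.08 ± 0.12 against 0.34 ± 0.08 in wt, a difference of -0.26 ± 0.14 (SE, adjusted p = 1). For FNIP1, limma within the unlettered libraries gave a difference of 0.31 in neil1 (unadjusted p = 0.027, adjusted p = 0.975). With 1 mean per line limma gave 0.29 for FNIP1 in neil3 (unadjusted p = 0.0496), which did not pass after adjustment. The differences of TFE3, given without a test, lay between -0.04 and 0.01. Against wt of their own label set they were -0.081 in neil1, -0.127 in neil2, 0.046 in neil3 and 0.060 in neil123. Standard errors of the other members' differences ran from 0.0503 for MAP1LC3B to 0.233 for WIPI1, and differences of that size were not detectable with 3 to 7 pairs. All these differences share the wt libraries.

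In media, 4 of 40 member tests between a knockout and wt passed. The media levels of TFE3 also entered the BSO change by which it was chosen. Its tests in media, here and below, are therefore not independent of that choice. In neil2, where 10.5% of all genes differed, TFE3 and TFEB were lower. TFE3 had 3033, 3001 and 3154 in neil2, against 3372, 3159 and 3706 in unlettered wt, with no overlap (-0.20 ± 0.05 SE, adjusted p = 0.015, limma). Fitted within the unlettered libraries alone, the difference was -0.15 and did not pass (adjusted p = 0.178), and it was also lost without wt p1 (-0.15), neil2 rep11.1 (-0.19) or neil2 rep11.2 (-0.18), and with 1 mean per line (-0.17, adjusted p = 0.0746). TFEB had 189, 278 and 240 in neil2, against 278, 305 and 309 in unlettered wt, so the groups touched at 278 (-0.36 ± 0.10, adjusted p = 0.0213). Without replicate rep11.1, the low one, the difference was -0.21 and did not pass, nor did it without wt 1.3 or p1 (both -0.33), and it was -0.35 (adjusted p = 0.096) within the unlettered libraries.

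In neil123, where 7.67% of all genes differed, TFE3 was lower and RRAGD higher. TFE3 had 3855, 3729, 3651 and 3718 in neil123, against 4190, 4523, 4006 and 4249 in lettered wt, with no overlap. The difference was -0.15 ± 0.05 with a label set term (adjusted p = 0.0426) and -0.18 within the lettered libraries (adjusted p = 0.00345); it ran from -0.16 to -0.12 and did not pass without wt 1.1A, 1.1B or 1.3B, without any one of the 4 neil123 replicates, or without neil2 rep11.1 or neil3 2B. A fit that leaves the label set out gave -0.046 (adjusted p = 0.688), and 1 mean per line gave -0.14 (adjusted p = 0.296). RRAGD had 2060, 1964, 2216 and 2248 in neil123, against 1762, 1659, 1745 and 1709 in lettered wt, with no overlap. It was higher by 0.28 ± 0.07 (adjusted p = 0.00769) and by 0.30 within the lettered libraries (adjusted p = 0.000303). With 1 mean per line the difference of RRAGD was 0.27 and did not pass (adjusted p = 0.119, limma). The fit without the label set term gave 0.10 and did not pass either, and there the unlettered wt libraries, at 2187 to 2538, enter the wt mean. RRAGC stood at 562 to 684 in neil123 against 444 to 573 in lettered wt and did not pass (0.29, adjusted p = 0.0594).

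No member passed in neil1 (4 of 10 with an unadjusted p under 0.05; 0.349% of all genes differed) or in neil3 (0 of 10; 0.579% of all genes differed) with limma, edgeR or DESeq2. GABARAPL1 had 1132, 1331 and 1121 in neil2, against 908, 971 and 871 in unlettered wt, without overlap; at 0.37 ± 0.13 it did not pass with limma (adjusted p = 0.0595) or edgeR (adjusted p = 0.0577), and passed with DESeq2 (adjusted p = 0.0349) and with limma within the unlettered libraries (0.38, adjusted p = 0.0488). All 4 comparisons use the same wt libraries. In order of its mean in media, TFE3 stood at 3063 ± 80.5 in neil2, 3204 ± 129 in neil1 and 3412 ± 276 in wt of the unlettered set, where neil1 overlapped both neighbours. In the lettered set it stood at 3738 ± 85.1 in neil123, 4037 ± 138 in neil3 and 4242 ± 214 in wt, where neil3 overlapped both neighbours (SD, n = 3 and 4).

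**Figure D4:**
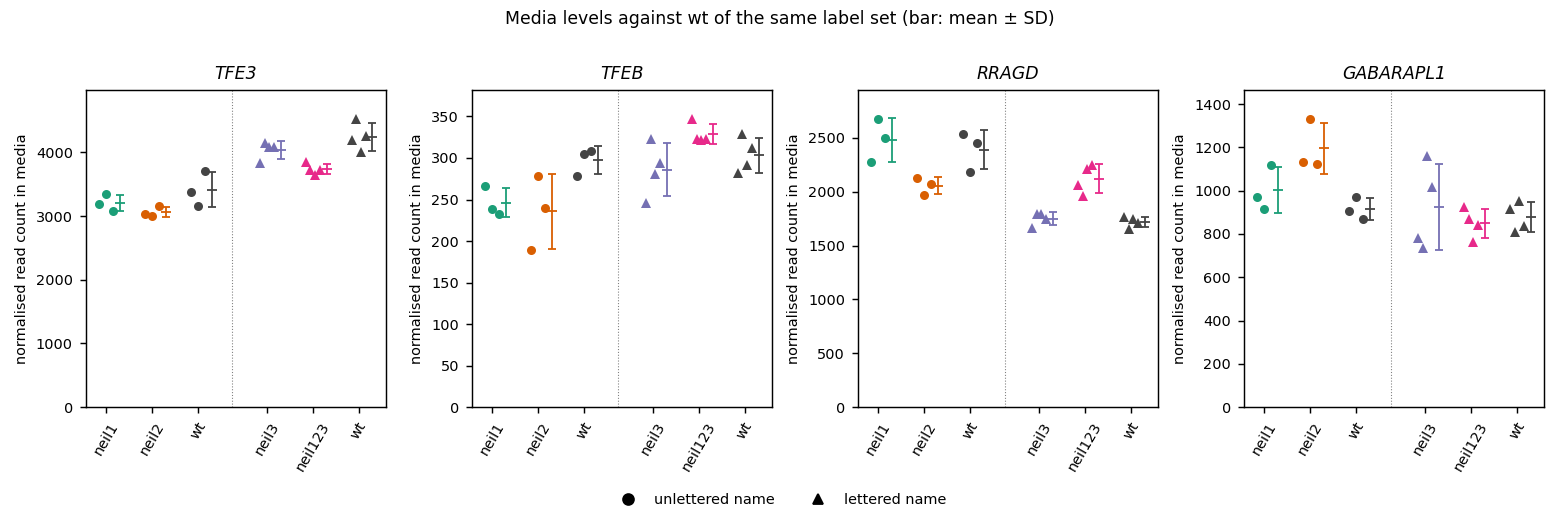
Normalised read counts in media of TFE3, TFEB, RRAGD and GABARAPL1, each knockout beside wt of its own label set, with 1 point per library and mean ± SD as bars (n = 3 each in the unlettered set, 4 each in the lettered set). TFE3 of neil2 and neil123 lies below its wt, RRAGD of neil123 above it, and GABARAPL1 of neil3 splits into 783 and 737 on one side and 1161 and 1017 on the other.

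The genes whose BSO minus media differences were most like those of TFE3 over the 21 pairs were OTUD5 (Pearson r = 0.859), MRTFA (0.851), ACTN4 (0.849), FBRS (0.838) and CIZ1 (0.827), of 14330 genes compared. These are descriptions with no test, over pairs that share label sets, genotypes and one normalization. Their own changes lay on both sides of 0, from -0.194 to 0.334 per pair. The other members stood far down this order, from MAP1LC3B (r = 0.35, rank 2636) to FNIP1 (r = -0.381, rank 12830). In wt 1.3, the pair with the highest TFE3 change (0.56), FNIP1 changed by -0.12.

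Beyond the members, 172 tested genes of 9 lists covered the rest of the pathway. In the average BSO change over genotypes 81 of them rose and 11 fell (53.5% in either direction, against 25.6% of all genes). The lists were chosen with earlier results of these data known. Shares of them that passed, here and below, are therefore not independent support for a pattern. The median change of the 172 genes was 0.08, against -0.003 for all tested genes. The 81 rises ran from 0.057 to 1.073 with a median of 0.148. Among autophagy receptors, which tie cargo to ATG8 proteins, 9 of 13 rose and 1 fell (median 0.15). SQSTM1, which encodes p62, averaged 5031 ± 786 with BSO and 3328 ± 373 in media (SD, n = 21 each; 0.58 ± 0.04 SE, adjusted p = 5.88e-13) and was higher in 21 of 21 pairs. CALCOCO2, which encodes NDP52, was the one pathway gene to pass in all 5 genotypes (0.33 ± 0.03, adjusted p = 3.56e-12).

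Of 18 V-ATPase subunits, which acidify the lysosome, 11 rose and 1 fell (median 0.09); ATP6V0D1, past the threshold in 3 genotypes, averaged 3107 ± 229 with BSO and 2695 ± 174 in media (0.19 ± 0.03, adjusted p = 7.49e-07). Of 36 lysosomal hydrolases and activators, 19 rose and 2 fell (median 0.10). HEXA, a subunit of beta-hexosaminidase, rose by 0.32 ± 0.02 (adjusted p = 3.36e-12), NEU1, the lysosomal sialidase, by 0.36 ± 0.04 (adjusted p = 3.23e-08), TPP1 by 0.31 and cathepsin D (CTSD) by 0.31. Of 21 genes of the lysosomal membrane and sorting, 11 rose and 2 fell (median 0.12). Among them the chloride exchanger gene CLCN7 averaged 1932 ± 399 with BSO and 1444 ± 221 in media (0.39 ± 0.03, adjusted p = 6.16e-12), and NPC2, CTNS and LAMP2, which encode a cholesterol carrier, the cystine exporter and a membrane glycoprotein, rose by 0.34, 0.27 and 0.24.

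Of 30 genes of nutrient sensing at the lysosome, 10 rose and 3 fell (median 0.04), led by FNIP2, the other partner of folliculin, with 970 ± 105 with BSO and 795 ± 69.9 in media (0.28 ± 0.04, adjusted p = 5.55e-07). Of 17 ATG8 and conjugation genes 7 rose and 1 fell (median 0.04), of 16 initiation genes 4 rose (median 0.05), and of 14 fusion genes 6 rose (median 0.06), with the HOPS subunit VPS41 at 0.21 ± 0.03. Among 12 further reported MiT/TFE targets 8 rose and 1 fell (median 0.22); DDIT3, SESN2 and GPNMB rose by 1.07, 0.91 and 0.65, and DDIT3 and SESN2 are also known targets of the stress factor ATF4. Genes that fell, named after their values were seen, include cathepsin C (CTSC), lower in 21 of 21 pairs with 1314 ± 400 with BSO and 1596 ± 409 in media (-0.30 ± 0.05, adjusted p = 1.45e-05), and TCIRG1, a V-ATPase subunit best known from osteoclasts (-0.25 ± 0.06, adjusted p = 0.00122). By genotype, rises numbered 54 of 172 in wt, 31 in neil3, 19 in neil123, 8 in neil1 and 1 in neil2, which is 31.4%, 18%, 11%, 4.65% and 0.581% of them, against 7.24%, 3.36%, 1.33%, 0.823% and 0.14% of all genes. With the replicate block 91, 61, 49, 27 and 24 rose, against 16%, 9.84%, 5.55%, 4.11% and 3.69% of all genes. Genotypes with fewer pairs yield fewer calls, so these counts do not compare the size of the response between genotypes.

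**Figure D5:**
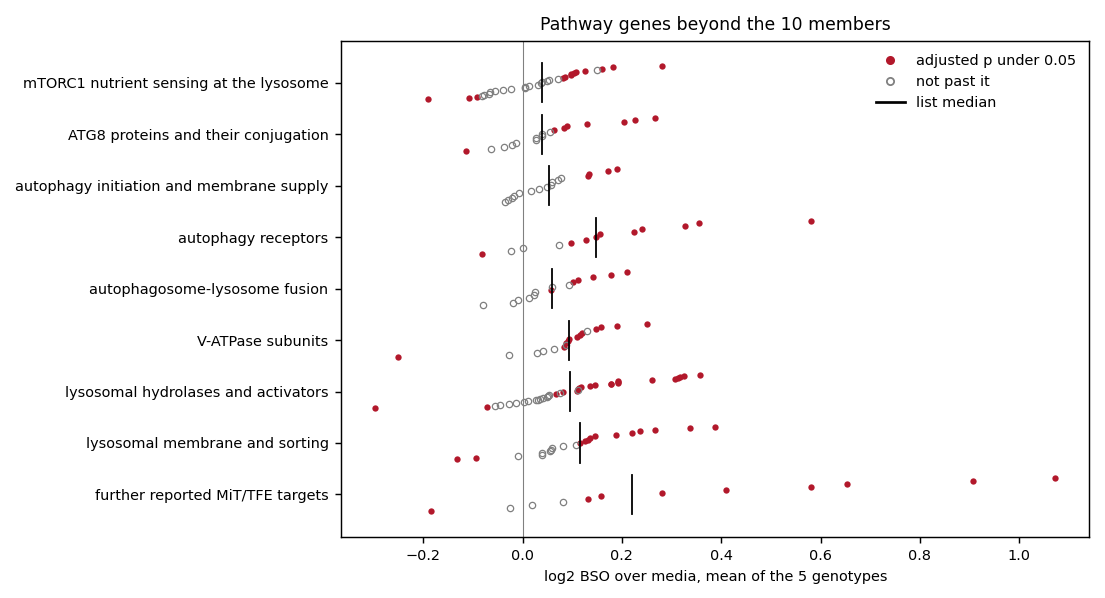
Average BSO change over the 5 genotypes of 172 pathway genes beyond the members (log2, 1 point per gene, genes in 2 lists shown in both), with filled points past an adjusted p of 0.05 and the list median as a bar. The medians run from 0.04 for nutrient sensing to 0.22 for the further reported targets, and CTSC and TCIRG1 lie on the falling side.

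In media few of the 172 genes differed from wt: 1 in neil1, 13 in neil2 (12 higher), none in neil3 and 6 in neil123 (5 higher) (0.581%, 7.56%, 0% and 3.49% of them, against 0.349%, 10.5%, 0.579% and 7.67% of all genes). In neil3 0 passed with limma, 0 with edgeR and 0 with DESeq2, and 9, 11 and 11 of the 172 had an unadjusted p under 0.05. SLC17A5, the lysosomal sialic acid exporter, was higher in neil1 (0.52, adjusted p = 0.00572) and in neil123 (0.41, adjusted p = 0.00161). In neil2 the mTORC1 inhibitor subunit NPRL2 (0.34), the Ragulator subunit LAMTOR4 (0.33) and the peptidase genes SCPEP1 (0.33) and CTSF (0.32) were higher. In neil123 CTSF was higher too, and the fusion gene STX17 was lower (-0.21). With the replicate block, the BSO changes of CTSF and CLCN7 in neil2 were smaller than in wt, at -0.002 against 0.30 (adjusted p = 0.0249) and 0.16 against 0.45 (adjusted p = 0.0347), and neither difference passed without the block.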

How the data were processed

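RNA-seq of 42 HAP1 libraries was used from one deposited table of 30182 entries, 20515 with a gene symbol. Per the submitters' processing notes, the authors used Trim Galore, HISAT2, SAMtools, featureCounts and DESeq2 with GRCh38; for versions, annotation and strand setting the sources used here give nothing. The deposited signal values are read counts divided by a size factor per library: 100% are whole multiples of the value of 1 read (relative tolerance 1e-06). Entries without a symbol held 0.868% to 1.25% of reads and were left out. Depth was 26.8 M to 30.7 M reads in named genes, and more reads give less counting error.

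The main test was limma 3.58.1 (R 4.3.3) with an intensity trend on log2(value + 1), so fold changes of low genes are understated. It covered 14331 genes (symbol, mean at least 10), all 42 libraries, 10 groups and a label set term, with Benjamini-Hochberg adjustment over all tested genes and a threshold of 0.05. On the recovered reads, edgeR 4.0.16 (quasi-likelihood) and DESeq2 1.42.0 were alternatives; edgeR called 1850 genes higher and 1880 lower in the average BSO change. Pairing was taken from the names. Deviations from group means of same-named BSO and media libraries correlated at 0.375 to 0.849 in the 21 pairs. Libraries of different names were not compared. This measure therefore cannot tell pairing by replicate from a likeness among libraries that share the leading number of the name. With the label set removed too, the range was -0.0793 to 0.849, the lowest being wt 1.1 (-0.0793) and wt 1.3 (0.0554), so pairing is less clear in wt, and results of the blocked fit (replicate name as block) are printed where a call changes. Other alternatives were the fit within each label set or without the label set term, and 1 mean per line. Lines were read from the names, and wt 1.1 and wt 1.3 had a mean in each label set, so they count more than once. Further alternatives were other pseudocounts (0.5 and 5) and filters, other scalings, and leaving out each replicate.

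The members and the lists were chosen with earlier results of these data known. Beyond the members, genes past the threshold with BSO in 3 or more genotypes could be named. Of these the text names up to 4 per list, those with the largest average BSO change. Up to 2 genes per list and knockout qualified by the largest difference in media, and only some of them are given. Marker genes and the 5 genes most like TFE3 are also named.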

Additional observations from a re-analysis of the deposited data

Results flagged for a closer look

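Among 90 groups of 4 to 7 values (levels in media or with BSO, or changes with BSO, of one member in one genotype), 6 held a library far from the others of its group; chance sets about 1 in 20 groups apart in this way. The change of TFE3 with BSO in neil123 was 0.484 on the log2 scale in replicate 2A, above the other 3 pairs, and RRAGC in the same pair changed by 0.050, below the other 3. RRAGD changed by 0.490 in neil3 replicate 1A, above the other pairs of neil3, and MAP1LC3B by 0.053 in wt replicate 1.1B, below the other 6 pairs of wt. In media, TFEB stood at 347 in neil123 replicate 1A, above the other 3 libraries, and FLCN at 795 in neil3 replicate 1B, above the other 3.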

How the results depend on the processing

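The 11 member calls with BSO became 15 with DESeq2, 5 without the label set term, 6 with 1 mean per line and 28 with the replicate block. When a replicate was left out they numbered 10 to 12. The 4 member calls in media became 5 with DESeq2 and 1 with 1 mean per line. When a replicate was left out they numbered 1 to 5 (2 without wt p1, 1 without neil2 rep11.1). The count of member differences in BSO change was 0 under each alternative. The 121 list calls with BSO over the 5 genotypes became 75 without the label set term, 77 with 1 mean per line and 277 with the replicate block, and 103 to 127 when a replicate was left out. The 20 list calls in media became 64 without the label set term, 13 with 1 mean per line and 11 within each label set, and 10 to 27 when a replicate was left out (10 without wt p1). Over all comparisons of members, none of the 22 that passed changed direction under an alternative and 42 of the 108 that did not pass did, as did 3 of the 4 TFE3 differences. Among values printed with a test, it changed for TFEB on average (-0.005 without neil2 rep11.1), for MITF on average (-0.002 without neil1 rep13.2, -0.001 without neil2 12 and -0.005 without neil123 1A) and for FNIP1 in wt (-0.017 within the unlettered set). When a replicate was left out, these averages ran from -0.005 to 0.044 for TFEB and from -0.005 to 0.030 for MITF. The cause was not tested. Of the other tabulated single-gene values under an alternative, 52 no longer passed and 35 newly passed. The remaining 1457 kept their direction and, where tested, their side of the threshold. They include the changes of TFE3 with BSO, by which it was chosen and which have no test, so their steadiness is no support. Depth limits WIPI1 most, the member with the lowest counts.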
